A study of Gallus gallus with 8 samples.

Results

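The genes described here are the globins, the enzymes that make heme and other genes of red blood cells, measured on arrays in electroporated chick neural tube cells that had been sorted by fluorescence. They were chosen by name: every row of the deposited table whose symbol has the form of a hemoglobin gene, and 28 listed genes of the red cell membrane, heme synthesis, iron supply and erythroid transcription. The pattern matched 7 globin genes. Of the 28 listed names, 18 were found by their symbol in the deposited table and 6 (ALAD, BNIP3L, FAM210B, HEBP1, HEMGN and TSPO2) only through their gene ID. The other 4 (ALAS2, GATA1, PPOX and SPTB) had no probe set matched to them here. That makes 31 genes of 14355 in all, with 57 of the 38439 probe sets tested. Where a gene had several probe sets, the one with the highest mean over the 8 arrays stands for it.

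Embryos of white Leghorn chickens at Hamburger and Hamilton stages 10 to 11 received 2 plasmids by electroporation at trunk level. In both groups the cells carried pBRE-tk-EGFP, a green reporter behind an element that responds to bone morphogenetic protein (BMP), and pCAGGS-IRES-H2B-RFP, a red nuclear marker of electroporated cells. Neural tubes were dissected 24 h later and pooled from nearly 30 embryos, and sorting split the red fluorescent cells into those with green (BRE_active, 4 arrays) and those without (BRE_inactive, 4 arrays), 1 of each from every one of 4 pools. Either fraction was therefore electroporated neural tube cells by its labels, not blood, and the labels put 90% beside each sorted population.

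Red blood cells of birds keep their nucleus. The first ones arise in the yolk sac and circulate through the embryo while the neural tube closes. Their hemoglobin joins alpha-type and beta-type globin chains around heme, an iron porphyrin built by a chain of enzymes that starts and ends in the mitochondrion. A membrane skeleton of spectrin, ankyrin and proteins 4.1 and 4.2 is tied to the anion exchanger SLC4A1, and the transcription factors GATA1, TAL1, LMO2 and GFI1B direct the program.

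Globins and several other red cell genes were lower in BRE_active cells, and no gene of the group was called higher. A gene is called where limma gave an adjusted p under 0.05 over all 38439 probe sets. Of the 31 genes, 8 were called lower (HBZ, HBAD, HBBR, HBBA, HBB, SLC4A1, CA2 and TSPO2), 0 higher and 23 were not called. Over all genes, 0.627% were called lower, 1.48% higher and 2.1% in either direction, and of genes present on at least 1 array 0.936% were called lower. Over probe sets, 1.34% were called in either direction, 5.61% with the block described next. At an unadjusted p under 0.05, 24 of the 31 were lower and 0 were higher, against 1136 lower and 1242 higher of all 14355 genes. Fitted with each pool of embryos as a block, so that both fractions of the same embryos are compared, 18 of the 31 were called lower and 0 higher, against 2.45% of all genes lower and 4.7% higher. In both fits limma draws the variance of a probe set toward that of all probe sets. The blocked p-value is therefore no measure of the spread between pools alone, and why more genes passed was not tested. The median difference (BRE_active minus BRE_inactive, log2) was -1.42 over the 31 genes and -0.02 over all genes. Values of BRE_active and BRE_inactive arrays did not overlap for 19 of the 31 genes, all lower in BRE_active, where 4.04% of all genes showed this. The members were chosen with these data's results known, so these counts describe them and are no independent support of a direction.

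**Figure D1:**
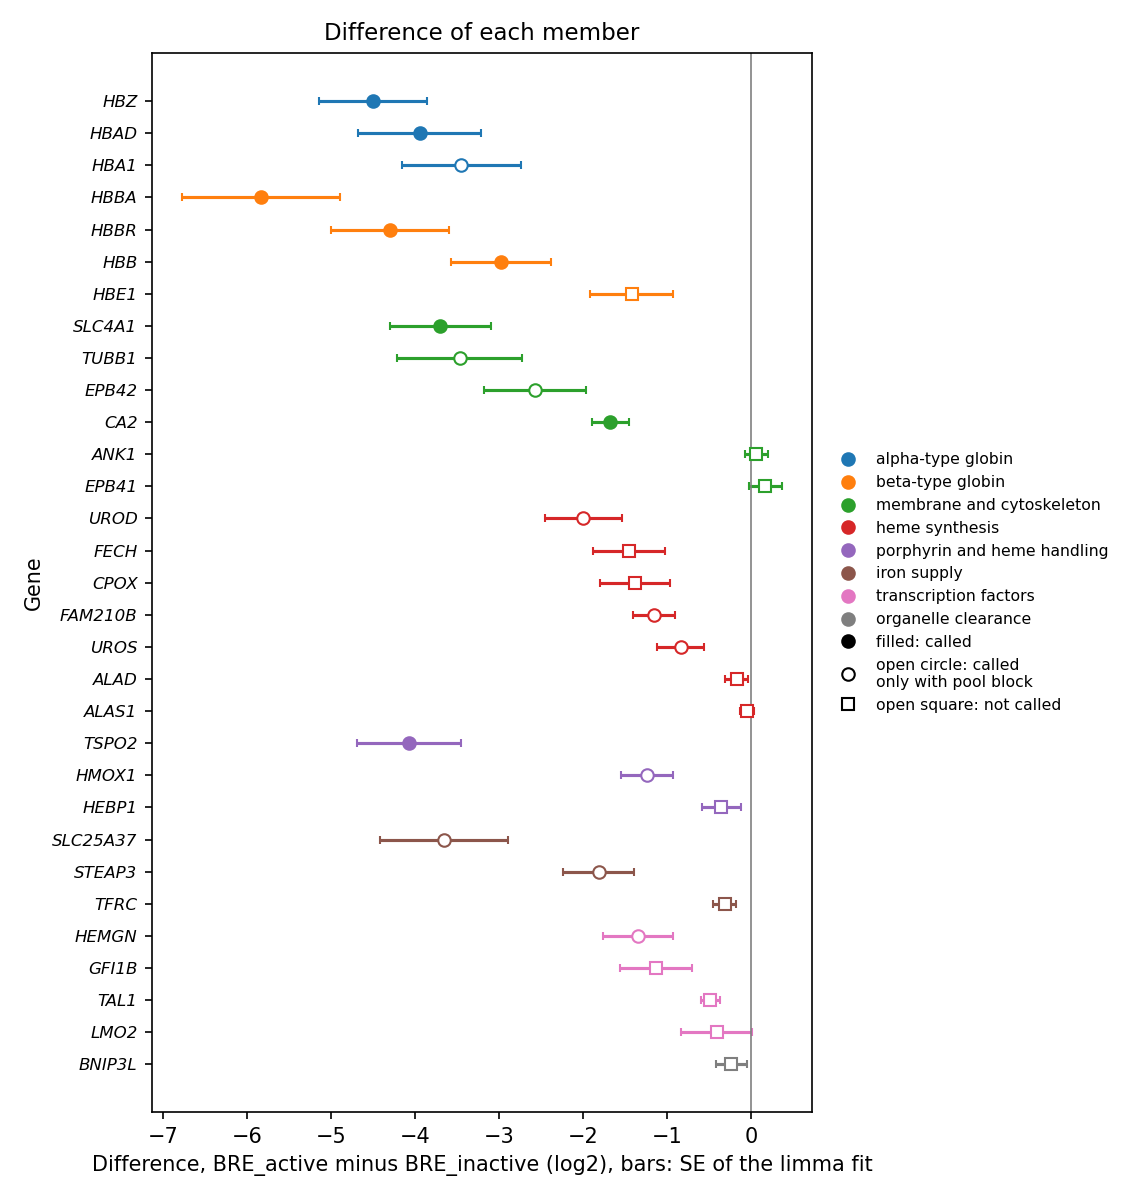
Difference between BRE_active and BRE_inactive cells (BRE_active minus BRE_inactive, log2, horizontal axis) of each of the 31 genes, ordered by role, with bars for the standard error from limma. Filled circles are the 8 genes called by limma, open circles those called only with the pool as a block, and open squares those not called; HBBA lies farthest to the left at -5.83, and ANK1 and EPB41 lie at 0.06 and 0.17. TFRC was present on no array.

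In bulk samples such as these, fewer cells with these transcripts and less of this RNA per cell cannot be told apart. Which cells the RNA came from was not tested. The labelled cell type was checked against its markers: all 9 neuroepithelial genes looked at, among them SOX2, CDH2 and NES, were present on at least 1 array, these 3 on all 8. The differences of all 9 lay below 0, and 2 fell, SOX3 (-1.09 ± 0.11, adjusted p = 0.0027) and PAX6 (-1.11 ± 0.21, adjusted p = 0.0349), or 5 with the block. Their mean level was 8.69 to 8.95 on BRE_active arrays and 9.18 to 9.78 on BRE_inactive arrays, without overlap, and its part in the red cell differences was not tested. Array medians lay between 4.24 and 4.32 and pairs of arrays correlated between 0.974 and 0.996. Signal at the 3-prime end over that at the 5-prime end of 3 control genes, a sign of RNA and labelling quality, was 2.92 ± 0.40 in BRE_active and 2.58 ± 0.29 in BRE_inactive cells (log2, SD, n = 4 each), larger in BRE_active in 4 of 4 pools, and its part in the differences was not tested.

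The alpha-type globin genes lie next to each other on chromosome 14. HBZ, which encodes an embryonic alpha-type chain, had values of 7.43, 8.71, 9.68 and 11.08 on the BRE_active arrays of pools 1 to 4, against 14.23, 13.09, 14.03 and 13.56 on the BRE_inactive arrays (log2). The groups did not overlap, and the difference was -4.50 ± 0.64 (SE, limma adjusted p = 0.0103), a level 22.7-fold lower in BRE_active. HBAD, the gene of the alpha-D chain, was at 7.40, 8.76, 10.25 and 11.55 in BRE_active, against 13.86, 12.90, 13.72 and 13.27 in BRE_inactive cells. It was 15.4-fold lower in BRE_active (-3.94 ± 0.73, adjusted p = 0.0336).

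HBA1, the alpha-A gene, which serves embryonic and adult red cells alike, was measured by 2 bright probe sets. The brighter one, which stands for the gene, gave 8.35, 9.76, 11.16 and 12.44 in BRE_active and 14.16, 13.43, 14.05 and 13.85 in BRE_inactive cells, again without overlap. Its difference of -3.45 ± 0.71 just missed the threshold (adjusted p = 0.0526, 0.011 with the block). The dimmer one gave 6.30, 7.48, 8.81 and 10.19 in BRE_active, against 13.55, 11.93, 13.35 and 12.80 in BRE_inactive cells. Its difference was larger, -4.72 ± 0.72, and was called (adjusted p = 0.0141). HBAD had a dimmer second probe set too, and it also differed more, by -5.24 ± 0.78 (adjusted p = 0.0123). A remaining probe set of each gene was present on no array.

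Beta-type globin genes lie on chromosome 1. HBBR encodes rho globin, a chain of the embryo's first red cells, and had 7.71, 8.95, 10.44 and 11.68 in BRE_active and 14.28, 13.53, 14.25 and 13.91 in BRE_inactive cells. This is 19.7-fold lower in BRE_active (-4.30 ± 0.70, adjusted p = 0.0185). HBBA, the adult beta chain gene, is written HBG2 in the deposited table and was identified by its gene ID. It was at 3.82, 4.46, 6.00 and 7.57 in BRE_active, against 12.90, 8.99, 12.14 and 11.13 in BRE_inactive cells, and was called present on 2 BRE_active and 4 BRE_inactive arrays. Its measured difference was -5.83 ± 0.94 (adjusted p = 0.0178). Its size is uncertain, since 2 BRE_active arrays had no present call, and its rank among globins has no reading, since brighter globins stood at the top of the BRE_inactive arrays' range. BRE_inactive 2 stood lowest of its group by over 2 log2 units.

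The row named HBB, whose gene ID is not in the gene table used, read 9.58, 10.65, 11.74 and 12.99 in BRE_active and 14.25, 13.79, 14.57 and 14.25 in BRE_inactive cells. No BRE_active array reached the lowest BRE_inactive array, and the difference was -2.97 ± 0.59 (adjusted p = 0.0456). HBE1, for which the gene table gives the hatching-stage globin HBBH as another name, was present on 0 BRE_active and 2 BRE_inactive arrays. Its measured value was 2.67-fold lower in BRE_active, a size left uncertain by the arrays without a present call in both groups, and it was not called (adjusted p = 0.249). Globin genes are near-identical in parts, and the probe sets standing for HBAD and HBBA carry the suffix that Affymetrix gives to sets matching several transcripts, so signal may be shared within the family.

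The spread within a group differed between probe sets of the same gene. The brightest HBAD probe set spanned 17.8-fold over the BRE_active arrays and 1.95-fold over the BRE_inactive ones. The dimmer HBAD probe set read 5.64, 6.82, 8.30 and 9.62 in BRE_active and 13.75, 11.64, 13.34 and 12.63 in BRE_inactive cells, a wider range in the second group than the brightest one gave. HBBA spanned 13.4-fold in BRE_active and 15.0-fold in BRE_inactive cells, and HBE1, with no present call in BRE_active, 1.19-fold and 7.53-fold. On 3 of the 4 BRE_inactive arrays a globin had the highest value of any probe set tested, HBBR with 14.28 on BRE_inactive 1 and HBB with 14.57 and 14.25 on BRE_inactive 3 and 4. A level at the top of an array's range can understate how high a transcript is there.

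**Figure D2:**
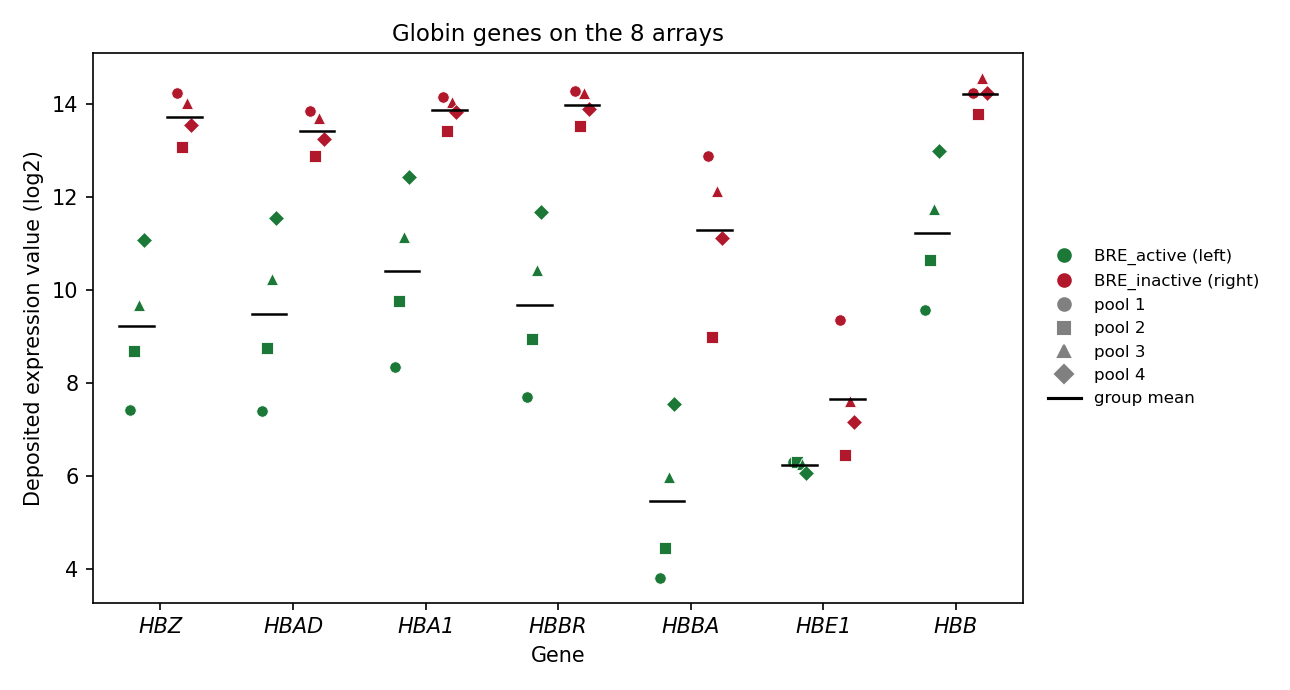
Deposited log2 values (vertical axis) of the 7 globin genes on the 8 arrays, with BRE_active left (green) and BRE_inactive right (red) for each gene, symbols marking the pool of embryos and lines the mean of 4 arrays. All 4 BRE_active values lie below all 4 BRE_inactive values for each gene, and pool 4 is highest and pool 1 lowest in BRE_active for every globin but HBE1.

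Among genes of the membrane and cytoskeleton, 2 of 6 fell, 4 fell with the block, and ANK1 and EPB41 were near 0. SLC4A1, the anion exchanger that swaps chloride for bicarbonate, was at 5.16, 5.17, 5.79 and 6.12 in BRE_active, against 10.65, 7.44, 10.16 and 8.80 in BRE_inactive cells. It was present on 0 BRE_active and 4 BRE_inactive arrays, and its measured value was 13-fold lower in BRE_active (adjusted p = 0.0187). The size is uncertain, since BRE_active arrays had no present call. Within pools the difference went from -5.49 (pool 1) to -2.27 (pool 2), in log2. Another 3 probe sets of SLC4A1 were present on no array, and averaged with them the difference was -0.99 (adjusted p = 0.0468). CA2, the carbonic anhydrase that makes that bicarbonate from carbon dioxide, had 6.57, 6.41, 6.44 and 6.61 in BRE_active and 8.78, 7.62, 8.44 and 7.90 in BRE_inactive cells. It was present on all 8 arrays and 3.20-fold lower in BRE_active (-1.68 ± 0.22), with the smallest adjusted p of the group, 0.00702.

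TUBB1, a beta-tubulin of avian red cells and thrombocytes, read 3.89, 4.02, 3.68 and 4.43 in BRE_active and 9.32, 5.19, 8.62 and 6.77 in BRE_inactive cells. The groups did not overlap, but the difference of -3.47 ± 0.75 (adjusted p = 0.0618) needed the block to pass (SE 0.62, adjusted p = 0.0167). TUBB1 was present on 2 BRE_active and 4 BRE_inactive arrays, so the size is uncertain. EPB42, which encodes protein 4.2 and anchors SLC4A1 to the skeleton, gave 4.82, 4.83, 4.68 and 4.75 in BRE_active, against 8.77, 5.51, 8.42 and 6.64 in BRE_inactive cells. It was present on 0 BRE_active and 4 BRE_inactive arrays. By this probe set its measured value was 5.93-fold lower in BRE_active (adjusted p = 0.0892, 0.0193 with the block). The size is uncertain without present calls in BRE_active, and the difference went from -3.95 in pool 1 to -0.68 in pool 2 (log2). The other EPB42 probe sets were present on 1 BRE_inactive array at most and were called in neither fit. The BRE_active arrays spanned 0.75 log2 units for TUBB1 and 0.14 for EPB42, and for both genes the BRE_inactive arrays of pools 1 and 3 stood above those of pools 2 and 4. ANK1 and EPB41, whose products ankyrin and protein 4.1 also serve other cells, differed by 0.06 ± 0.13 and 0.17 ± 0.20 (adjusted p = 0.869 and 0.738). The other ANK1 probe sets were present on no array, so their sizes are not read. Among them a set was called lower in the blocked fit (-0.50, adjusted p = 0.0313, against 0.0999 unblocked).

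Of the 7 genes grouped under heme synthesis, limma called 0 without the block (5 lower at an unadjusted p under 0.05), and the differences of all 7 lay below 0, from -2.0 to -0.05. With the block 3 fell, UROD, UROS and FAM210B. In pathway order, ALAS1, which makes the first precursor in the mitochondrion, averaged 8.50 ± 0.07 in BRE_active and 8.55 ± 0.09 in BRE_inactive cells (SD, n = 4 each), a difference of -0.05 ± 0.08 (adjusted p = 0.83). The gene table lists the erythroid form ALAS2 among the other names of this gene ID, so which of the 2 enzymes was read is not settled here. ALAD, the second enzyme, differed by -0.17 ± 0.14 (adjusted p = 0.627), but the deposited table names its probe set HDHD3, and only the gene ID points to ALAD.

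UROS, which closes the porphyrin ring, averaged 8.02 ± 0.20 in BRE_active and 8.85 ± 0.66 in BRE_inactive cells, a difference of -0.84 ± 0.28 (adjusted p = 0.228, 0.0471 with the block). UROD, which acts on its product, read 8.05, 8.05, 8.06 and 8.95 in BRE_active and 11.55, 8.94, 10.29 and 10.30 in BRE_inactive cells. The groups met at 1 point, BRE_active 4 with BRE_inactive 2, and the difference was -2.0 ± 0.46 (adjusted p = 0.0797, 0.0162 with the block). CPOX and FECH, the latest enzymes measured, differed by -1.38 ± 0.42 and -1.45 ± 0.43, and stayed above the threshold with the block as well (adjusted p = 0.0535 and 0.0694). FAM210B, a mitochondrial membrane protein linked to heme synthesis in mammalian erythroid cells, averaged 7.07 ± 0.23 in BRE_active and 8.22 ± 0.56 in BRE_inactive cells. It fell in the blocked fit (-1.15 ± 0.24, adjusted p = 0.0305) and was not called in the unblocked one (-1.15 ± 0.25, adjusted p = 0.0619). Its dimmer probe set, present on every array, differed by -1.18 ± 0.36 and was called in neither fit (adjusted p = 0.196, 0.111 with the block).

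**Figure D3:**
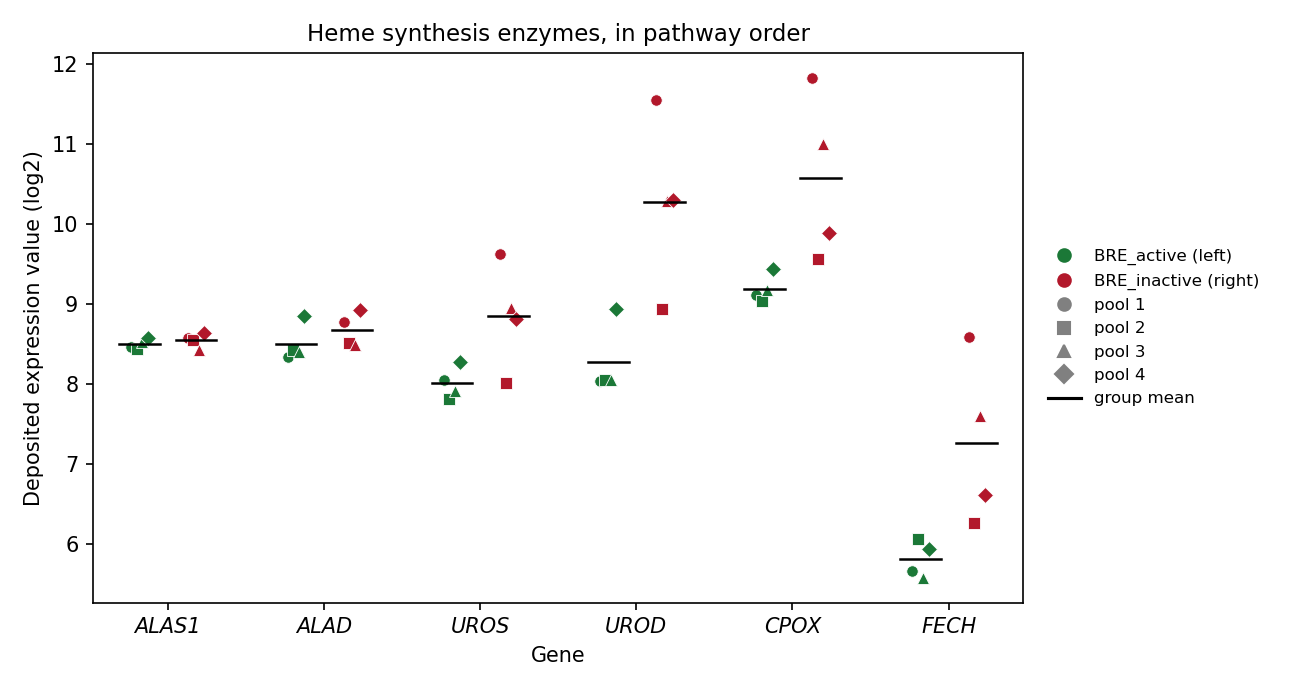
Deposited log2 values (vertical axis) of 6 heme synthesis enzymes in pathway order on the 8 arrays, BRE_active left and BRE_inactive right for each gene, symbols marking the pool and lines the group mean. ALAS1 and ALAD (differences of -0.05 and -0.17), and also UROS and UROD, have groups whose values overlap. From UROS to FECH the BRE_inactive array of pool 1 is the highest of all 8.

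Of the genes that handle porphyrin, heme and iron, TSPO2 was called and 3 others passed with the block. TSPO2, in mammals an erythroid relative of the mitochondrial translocator protein, was at 5.10, 5.25, 5.94 and 6.46 in BRE_active, against 11.25, 8.15, 10.61 and 9.02 in BRE_inactive cells. It was present on all 8 arrays and 16.8-fold lower in BRE_active (-4.07 ± 0.62, adjusted p = 0.0138). SLC25A37, or mitoferrin, carries iron into the mitochondrion and read 4.76, 5.15, 5.37 and 5.92 in BRE_active and 11.08, 6.60, 9.48 and 8.66 in BRE_inactive cells. The difference of -3.66 ± 0.76 narrowly missed the threshold (adjusted p = 0.0553, 0.0144 with the block), and was -1.43 when its dimmer probe sets were averaged in. SLC25A37 was present on 3 BRE_active and 4 BRE_inactive arrays.

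STEAP3, a reductase that readies endosomal iron for export, averaged 3.31 ± 0.14 in BRE_active and 5.12 ± 1.05 in BRE_inactive cells (-1.81 ± 0.42, adjusted p = 0.0832, 0.0249 with the block). It was present on 1 BRE_active and 3 BRE_inactive arrays, so its size is uncertain. Other probe sets of STEAP3 differed by -0.88 and -0.57 and were called in neither fit. HMOX1, the enzyme that breaks heme down, was present on 0 BRE_active and 1 BRE_inactive array. Its measured value was 2.36-fold lower in BRE_active (adjusted p = 0.109, 0.00053 with the block). The size is uncertain, since most arrays of both groups had no present call. TFRC, the transferrin receptor, was present on no array, so no size is given (adjusted p = 0.338). HEBP1, a heme-binding protein, was present on all 8 arrays and differed by -0.35 ± 0.24 (adjusted p = 0.545).

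Of the 4 erythroid transcription factors measured, limma called 0 (3 lower at an unadjusted p under 0.05) and 1 with the block. HEMGN, a nuclear protein of developing blood cells, was present on 0 BRE_active and 2 BRE_inactive arrays and passed in the blocked fit (adjusted p = 0.0465, against 0.198 unblocked). Its measured value was 2.54-fold lower in BRE_active, a size left uncertain by the arrays without a present call in both groups. GFI1B, a repressor needed for red cell maturation, averaged 4.09 ± 0.13 in BRE_active and 5.23 ± 1.07 in BRE_inactive cells (-1.14 ± 0.43, adjusted p = 0.286, 0.0931 with the block). It was present on 1 BRE_active and 3 BRE_inactive arrays, so its size is uncertain. TAL1, present on all 8 arrays, averaged 5.79 ± 0.14 in BRE_active and 6.28 ± 0.19 in BRE_inactive cells and missed the threshold in either fit (adjusted p = 0.0834, 0.0553 with the block). LMO2, its partner in blood and endothelium, differed by -2.07, 0.77, -0.51 and 0.18 in pools 1 to 4, with no common sign. BNIP3L, a mitophagy receptor that clears mitochondria from mammalian red cells, differed by -0.23 ± 0.18 (adjusted p = 0.603).

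Differences varied between pools in size more than in sign. In all 4 pools 24 of the 31 genes were lower in BRE_active, against 16.9% of all genes. Pool 1 showed the largest decrease for 7 of 7 globins and for 19 of the 24 other members, where it did so for 31.6% of all genes. The smallest decrease came from pool 4 for 6 of the 7 globins, and from pool 2 for 13 of the 24 other members. Over globins the median difference was -6.46, -4.14, -3.46 and -1.71 in pools 1 to 4. For the other members it was -2.14, -0.40, -1.30 and -0.59.

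**Figure D4:**
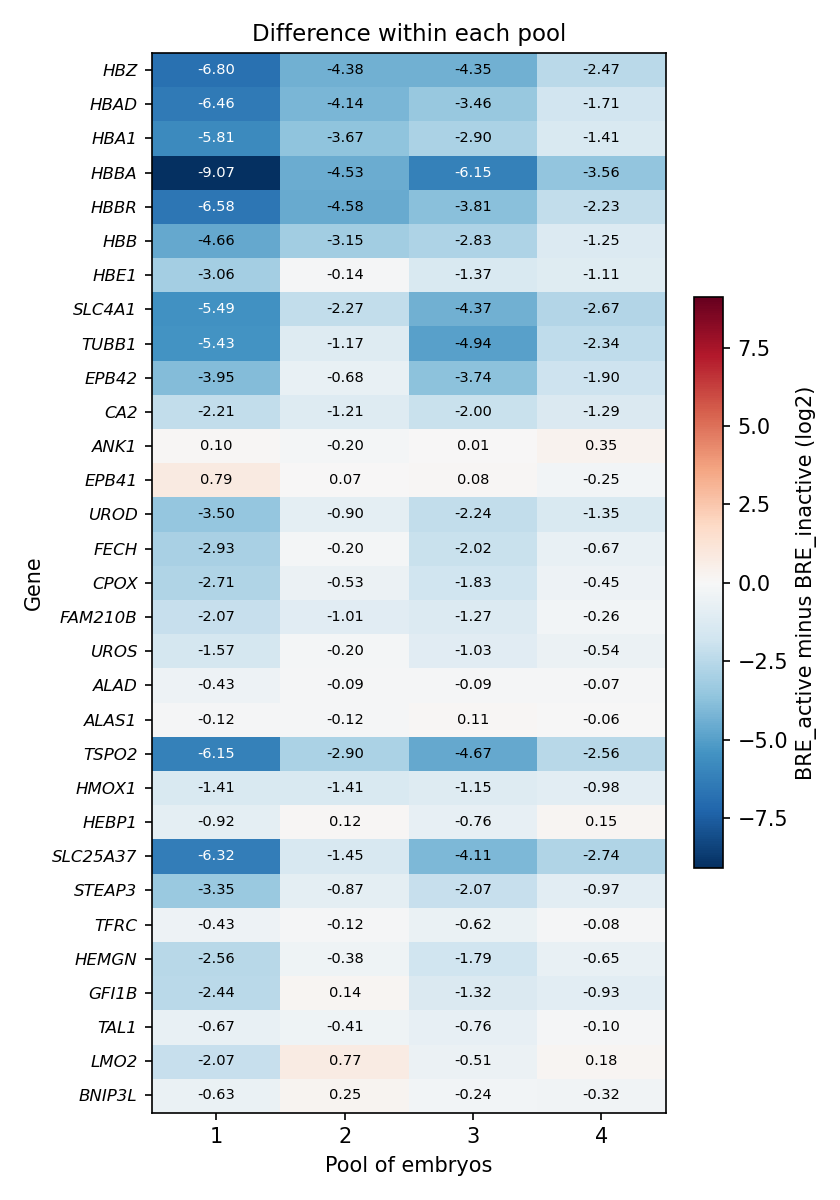
Difference between BRE_active and BRE_inactive (log2, colour and printed value) within each pool of embryos (columns) for the 31 genes (rows). Blue marks lower in BRE_active; FECH, present on all 8 arrays, is pale in pool 2 (-0.20), and HBZ, also present on all 8, is not (-4.38). Values of genes without a present call in BRE_active (HBE1, EPB42, SLC4A1, HMOX1, HEMGN), of TFRC, and of those present there on some arrays only, HBBA among them, are set against signals at background and are no exact sizes.

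The 2 groups of arrays each had an order of their own. The orders counted here are those that most globins showed, so the globin counts describe these genes and are no test. On BRE_inactive arrays the order from high to low was pool 1, 3, 4 and 2 for 6 of the 7 globins and 14 of the 24 other members, and for 3.63% of all genes. On BRE_active arrays it was pool 4, 3, 2 and 1 for 6 of the 7 globins and 5 of the 24 others (FAM210B, UROD, SLC25A37, SLC4A1 and TSPO2), and for 6.52% of all genes. Of these 5, SLC4A1 had no present call in BRE_active, so its order there has no reading. UROD hardly differed between pools 1 to 3 (8.045, 8.048 and 8.055). The range over BRE_active arrays had a median of 3.74 log2 units for globins and 0.51 for the other members, against 0.34 for all genes. Over BRE_inactive arrays the ranges were 0.96, 1.84 and 0.38. These ranges have limits at both ends. Globins were among the brightest probe sets on BRE_inactive arrays, where a range can be compressed, while HBBA and HBE1 ranged over 3.91 and 2.91 log2 units there. Of the 24 others, 5 had no present call in BRE_active, where a low level cannot be followed.

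**Figure D5:**
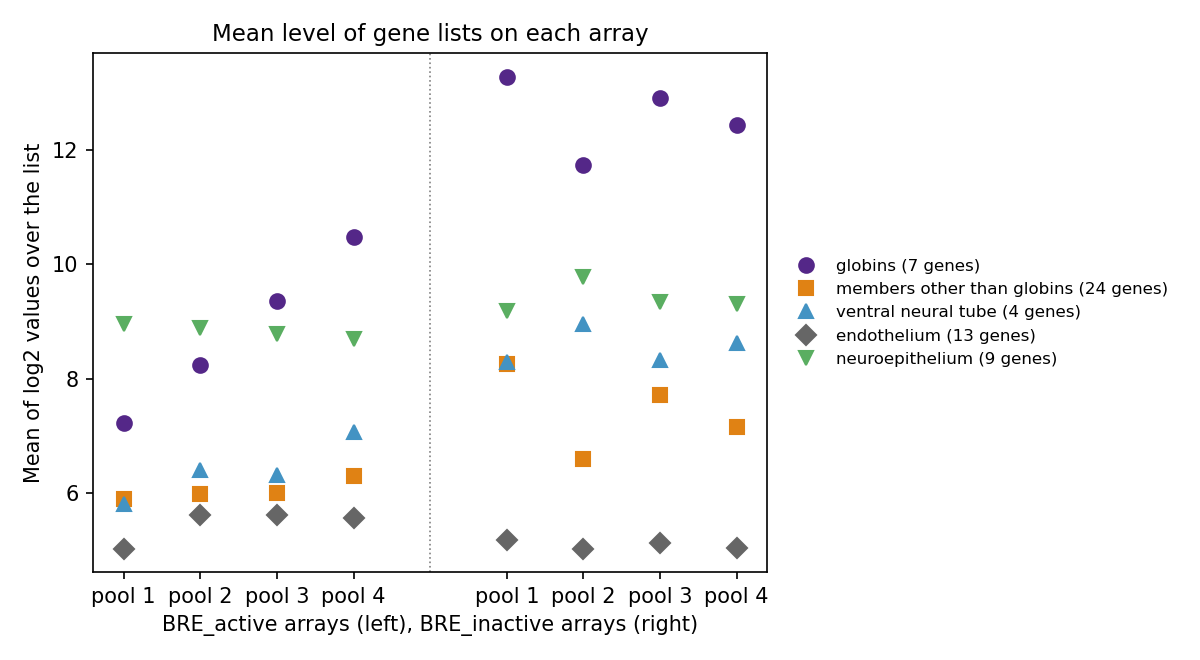
Mean of the log2 values over each gene list (vertical axis) on the BRE_active (left) and BRE_inactive (right) arrays of each pool. Globin means lie between 7.23 and 10.48 in BRE_active and between 11.74 and 13.29 in BRE_inactive cells, those of the other members between 5.90 and 6.29 and between 6.59 and 8.25; endothelial means overlap between the groups.

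No marker of the other cells found in blood and its vessels was called lower, but many were not detected. Present on at least 1 array were 9 of 13 endothelial, 4 of 9 leukocyte and 1 of 6 thrombocyte genes. A fall of undetected genes could not be seen, and the leukocyte and thrombocyte means below are largely background signal. Of 13 endothelial genes, limma called 1 higher (2 with the block) and 0 lower, against 4 higher and 1 lower at an unadjusted p under 0.05. Their mean level lay between 5.02 and 5.62 on the BRE_active arrays, against 5.02 to 5.17 on the BRE_inactive arrays. PECAM1, CDH5 and KDR, which define endothelium, differed by 0.98 ± 0.37, 0.89 ± 0.45 and 0.82 ± 0.25 (adjusted p = 0.287, 0.424 and 0.200), and SOX18 was the one called (1.2 ± 0.21, adjusted p = 0.0266). By limma, 0 of 9 leukocyte genes were called, and 0 at an unadjusted p under 0.05, with mean levels of 4.44 to 4.77 in BRE_active and 4.26 to 4.73 in BRE_inactive cells. The defining genes PTPRC and CSF1R were present on 0 and 1 of 8 arrays. For thrombocytes, limma likewise called 0 of 6 genes, and 0 at an unadjusted p under 0.05 (4.36 to 4.67 in BRE_active, and 4.42 to 4.57 in BRE_inactive cells), GP9 being present on none. Neural genes moved in both directions. Of 6 neural crest genes 4 rose (5 with the block), with a median difference of 2.04 and mean levels of 8.83 to 9.57 in BRE_active and 6.98 to 8.17 in BRE_inactive cells. By contrast, 4 of 4 ventral neural tube genes measured fell, with mean levels of 5.81 to 7.06 in BRE_active and 8.30 to 8.95 in BRE_inactive cells. The deposited table names the probe set of one of them OLIG3, and only the gene ID gives OLIG2, while NKX2-2, also listed, had no probe set matched. On the BRE_active side the mean of the ventral genes was highest in pool 4 (7.06) and lowest in pool 1 (5.81), as was that of the globins. The same held for the means of the other members, of the thrombocyte genes and of the other red cell and heme genes described next. Among all genes, 14.5% were highest in pool 4 and lowest in pool 1 there. On the BRE_inactive side the ventral mean was highest in pool 2 (8.95) and lowest in pool 1 (8.30). The globin mean there went the other way, highest in pool 1 (13.29) and lowest in pool 2 (11.74). The part of these other cells in the red cell differences was not tested.

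Of 48 other genes of red cells and heme measured from a list of 68, limma called 0 lower and 1 higher, and 1 lower and 1 higher with the block. Unadjusted, 9 had a p under 0.05 and were lower, and 1 was higher, against 1136 lower and 1242 higher of all 14355 genes. Their median difference was -0.08, near the -0.02 of all genes, and 35 of the 48 were present on at least 1 array. The gene that fell with the block was ABCB10, a mitochondrial transporter that partners mitoferrin in mouse (-1.34 ± 0.33, adjusted p = 0.106, 0.0298 with the block). TMEM14C, which in mouse moves a porphyrin precursor into the mitochondrion, differed by -1.25 ± 0.38 (adjusted p = 0.194). TF, the iron carrier transferrin, which the deposited table names LTF and the gene ID gives as TF, rose (1.03 ± 0.13, adjusted p = 0.00587), by 1.02, 0.95, 1.38 and 0.76 in pools 1 to 4. KLF1, EPOR and NFE2, at the head of the list, had no probe set matched here.

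The number of members called depended on single arrays, and so did the number of all probe sets called. Left out in turn, BRE_active 1, 2, 3 and 4 gave 4, 2, 2 and 15 called genes, and BRE_inactive 1, 2, 3 and 4 gave 5, 11, 3 and 7, against 8 with all arrays. Of all 38439 probe sets, the same fits called 254, 222, 211 and 1419, and 290, 385, 371 and 337, against 517. HBZ and CA2 were called whichever single array was left out, with differences of -5.18 to -3.74 and -1.87 to -1.48 when pools left out are counted too. HBB and HBAD were the least steady of the 8, called in 2 and 3 of the 12 fits that left out an array or a pool. Without pool 3, limma called 0 of the 31 (18 lower at an unadjusted p under 0.05), and without pool 1 it called CA2 alone. These 2 fits called 77 and 104 of all probe sets. Each of the 8 kept its sign in all 22 settings.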

How the data were processed

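RNA of 8 sorted cell samples, 4 BRE_active and 4 BRE_inactive, was hybridised to Affymetrix chicken arrays after biotin labelling, per the labels' protocols. The authors deposited log2 values, 1 per probe set and array, with detection calls, counts of arrays with each call per group, group means, a score column of SDs, a log2 difference and an adjusted p-value. The background correction, normalization, probe summary and detection caller are, for these arrays, not given in the sources used here. The authors' deposited adjusted p-value equalled that of a limma fit on group over all probe sets (largest difference 6.41e-13), and the series' second set of deposited log2 values was the same within 5e-09.

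Of 38535 probe sets, 96 controls were left out and 38439 were tested with limma 3.58.1 under R 4.3.3 (lmFit, then eBayes, with no term but group and Benjamini-Hochberg adjustment over all probe sets, threshold 0.05), after a check on simulated data. Differences are BRE_active minus BRE_inactive with the SE of the fit without the block, from 4 arrays a group, unless the blocked SE is named. The number of arrays limits the precision. Symbols were updated through the gene ID in RefSeq's genes of GRCg7b (22915 of 26132 probe sets with an ID matched). The build behind the files is not stated, so no coordinates are given. Folds divide the brighter group's mean by the dimmer group's, as measured. For SLC4A1 and EPB42, raising BRE_active values below the dimmest present signal to that signal left the fold unchanged. No lower limit is claimed.

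The members and lists were chosen with earlier results of these data known. Genes called or among the 12 with the largest absolute difference are given on every array, others by means and counts, and of other lists at most 4 genes with the smallest p and the first 3. Replicate numbers are pools, and a pool's embryos gave both fractions, which makes the design paired. Across probe sets, the 2 arrays of a pool deviated from their group means with correlations of -0.141, 0.203, 0.498 and 0.584 in pools 1 to 4. Alternatives were the pool as a block, median centring, quantile normalization, a present-call filter, the mean of a gene's probe sets, trend and robust eBayes, the second set of values, arrays or pools left out and, added after seeing the data, adjustment over genes. No sequence of these genes was used here. Some genes of the other lists are not reported here by name.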

Additional observations from a re-analysis of the deposited data

Results flagged for a closer look

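In 3 cases 1 array stood apart from the other 3 of its group by more than Dixon's critical value for 4 samples. UROD was at 8.95 on BRE_active 4, against 8.05 to 8.06 on the other BRE_active arrays. ALAD was at 8.85 on the same array, against 8.35 to 8.43. HMOX1 was at 6.74 on BRE_inactive 4, against 5.84 to 5.88 on the other BRE_inactive arrays. Chance alone flags about 1 in 20 groups, and 62 were looked at.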

How the results depend on the processing

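With the pool as a block, which pairs the arrays, 18 members were called lower instead of 8 and 2156 probe sets in all instead of 517. Restricted to probe sets present on all 4 arrays of a group, which leaves fewer tests, 13 of 22 members were called. Of all 12794 probe sets kept, 579 were called, 152 of them lower. SLC4A1, EPB42, HBBA, TUBB1 and SLC25A37 passed this filter only through BRE_inactive, where they are higher, so the count of members is no support of a direction. The block with adjustment over genes, added after seeing the data, called 20 members and 1101 of all 14355 genes, 381 of them lower. Adjustment over genes alone, added likewise, called 12 members and 373 genes, 118 of them lower. Median centring and quantile normalization each called 7, losing HBB, with 460 and 550 probe sets called in all, so scaling turned no direction. No setting called a member higher (0 at an unadjusted p under 0.05). Leaving out 1 array gave 2 to 15 called members and 211 to 1419 probe sets, and leaving out 1 pool gave 0 to 13 members and 77 to 1269 probe sets.

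Signs turned for 3 of the 31 genes, none called in any setting. ANK1 was -0.16 as the mean of all its probe sets and between -0.033 and 0.16 with arrays or pools left out (-0.02 in 2 of these). EPB41 lay between -0.034 and 0.31 and LMO2 between -0.80 and 0.15, both turning without pool 1. The cause was not tested. Averaging in dimmer probe sets made the differences of several genes smaller, among them SLC4A1, SLC25A37 and EPB42 (-0.99, -1.43 and -0.62). STEAP3, GFI1B and TAL1 were smaller too (-1.09, -0.62 and -0.33). The dimmer probe set of FAM210B differed about as much as the brighter one (-1.18 against -1.15).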

Other observations

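Genes on either side of the globin clusters, 3 each way in the order of the RefSeq gene table, were looked at after the globin values had been seen. Beside the alpha-type genes, RHBDF1, MPG and NPRL3 differed by 0.50 ± 0.08, -0.24 ± 0.17 and -0.08 ± 0.17 (limma adjusted p = 0.0216, 0.563 and 0.878), so that RHBDF1, a rhomboid-family membrane protein gene, rose. On the other side MRPL28 and AXIN1 differed by -0.05 ± 0.10 and 0.38 ± 0.16 (adjusted p = 0.861 and 0.339), and TMEM8A was present on no array. None of these 6 genes fell. Beside the beta-type genes, OR51M1 and FOLR1 were present on no array. OR52R1, read by a set that may match several genes, differed by -0.14 ± 0.08 (adjusted p = 0.445). LOC107052458, OR52B2L and HBE had no probe set matched here. HBE, counted here as a neighbour, is by its name a globin gene itself, and no probe set carried its gene ID. Whether the row named HBB, whose gene ID is not in the gene table, reads HBE was not tested.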
